A study of Desmophyllum pertusum with 36 samples.

Results

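The 200 transcripts described here are those whose level varied least over all libraries of an RNA sequencing study of Lophelia pertusa, a reef-building coral of cold water that is also called Desmophyllum pertusum. The study, as its title and labels give it, asked how its polyps respond to low pH. Pieces of 3 colonies of different genotype (colonies 1, 3 and 4) were kept at pH 7.6 or at pH 7.9, and polyps were sampled in week 2, week 4.5 and week 8.5. This gives 18 libraries, 9 at each pH, 6 of each week, 6 of each colony and 1 for each colony, pH and week. Sampling times carry only the numbers 1 to 3 in the labels, and the order of the weeks in the study's design was used to read them. The labels do not say whether pieces of a colony stood in separate tanks, so the spread between libraries may in part be technical.

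Members were chosen on CPM, the count of a transcript scaled to a library total that is the same for all libraries. Of 75743 transcripts, 8455 were eligible, with a mean CPM of at least 20 over the 18 libraries and outside the 100 with the highest mean CPM. The members are the 200 eligible transcripts with the lowest coefficient of variation (CV, the standard deviation divided by the mean) over the 18 libraries. Their steadiness is therefore what chose them, and every comparison of pH, week or colony within these libraries is given below as a description. The file lists transcripts by number and pairs none of them with a gene name or a length, so no function is given, tissue markers could not be checked, and a CPM is a share of reads, not of molecules, when transcripts are set side by side.

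Transcripts of steady level have several uses in expression studies of corals and other animals. They are the usual source of reference transcripts for quantitative PCR, where a target is expressed relative to a transcript taken to be constant. They also underlie the scaling of sequencing libraries, which assumes that most transcripts do not change between samples. Genes used by every cell, such as those for ribosomal proteins, elongation factors and parts of the cytoskeleton, are the textbook candidates, although their constancy has to be checked in each species and treatment.

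Library totals ran from 18042191 to 25651213 counts, and the 200 transcripts together took 1.27 to 1.41% of each. The lowest count of a member in any library was 318 and the highest was 30558. When libraries were grouped by likeness, 5 of them, all at pH 7.9, fell in a set held mostly by another colony. Those of colony 1 at weeks 4.5 and 8.5 lay with the pH 7.6 libraries of colony 3 (set B), those of colony 3 at weeks 4.5 and 8.5 with the other libraries of colony 1 (set A), and that of colony 3 at week 2 with the libraries of colony 4 (set C). In the 4 pairs of colonies 1 and 3 at weeks 4.5 and 8.5, the deviations of the pH 7.6 and pH 7.9 libraries from their group means correlated at -0.406 to -0.361 across transcripts, and in the other 5 pairs at 0.272 to 0.763. Exchanged colony labels and other causes cannot be told apart here. Colony ratios, the colony block and held-out colonies below follow the labels, and values without the 5 libraries are given where they bear on a result. In bulk polyp RNA, fewer cells of a type and less RNA per cell cannot be told apart.

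The CV of the members ran from 5.29 to 13.9% with a median of 12.5%, where the median over the 8455 eligible transcripts was 30.3% and the highest was 244%. The highest library stood at 1.25 to 1.94 times the lowest for a member, with a median of 1.57 times, against a median of 3.14 times over the eligible transcripts. Counting error alone would give members a CV of 0.677 to 4.81%, and it made up a median of 7.74% of a member's variance. The spread of every member was thus wider than counting error alone gives. Without the 5 libraries that fell outside the set of their colony, the same 200 transcripts had CVs of 6.21 to 15.9% with a median of 12.6%.

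**Figure D1:**
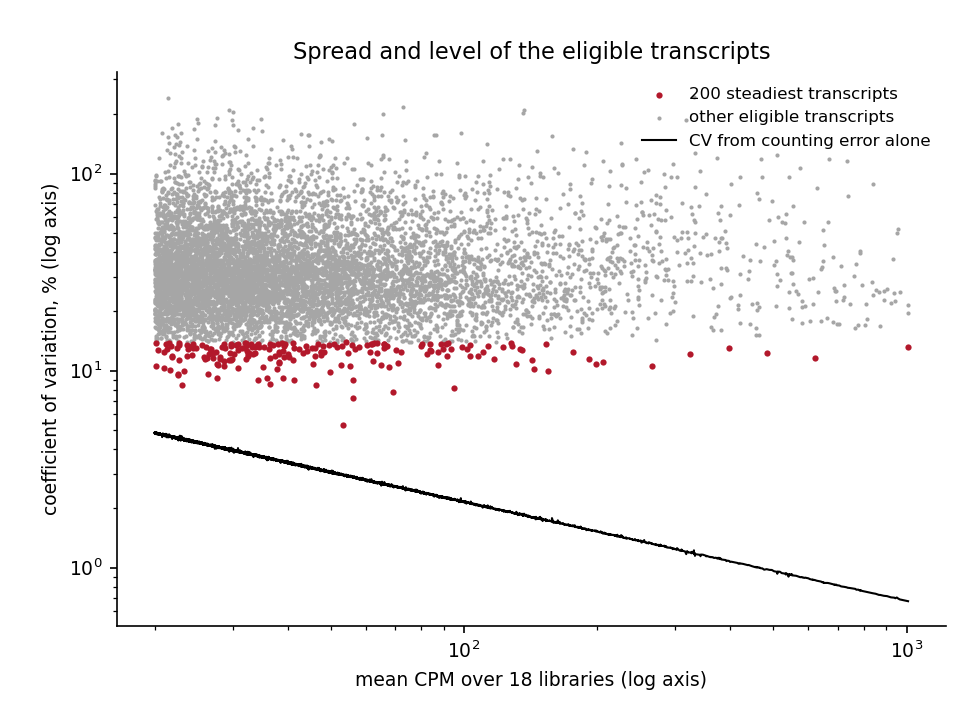
Each point is an eligible transcript, with its mean CPM over 18 libraries on the horizontal log axis and its CV in percent on the vertical log axis. The 200 members lie along the lower edge at all levels, from 5.29 to 13.9%, and the black line is the CV that counting error alone would give.

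The members were spread over the whole range of levels. Of the 5659 eligible transcripts with a mean of 20 to 50 CPM, 2.21% were members, of the 1786 with 50 to 100 CPM it was 2.69%, and of the 1010 above that 2.67%. The median CV of the members in these 3 classes was 12.4, 12.8 and 12.3%. Counting error made up 10.1, 4.16 and 2.1% of the variance of the members in the same classes.

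The transcript with the lowest CV, Transcript_76513, stood at 49.8, 52.6 and 58.9 CPM at pH 7.6 (lowest, median and highest of 9 libraries) and at 47.2, 54 and 55.6 CPM at pH 7.9. The ranges overlapped from 49.8 to 55.6 CPM, and the means were 53.5 ± 3.26 CPM at pH 7.6 and 53.3 ± 2.52 CPM at pH 7.9 (SD, n = 9 each). Its counts per library ran from 852 to 1368. With a CV of 5.29% it stood apart from the next transcript, and counting error made up 31% of its variance, the highest share among the members.

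Transcript_2013, at a CV of 7.24%, stood at 49, 53.1 and 57.2 CPM at pH 7.6 and at 54.4, 60 and 65.3 CPM at pH 7.9 (lowest, median and highest of 9 libraries). Although second by CV, most of its pH 7.6 libraries lay below most of its pH 7.9 libraries, and the ranges overlapped only between 54.4 and 57.2 CPM. Its log2 ratio of mean CPM, pH 7.6 over pH 7.9, was -0.14, and its lowest and highest libraries were those of colony 3 at pH 7.6 and of colony 4 at pH 7.9, both of week 8.5.

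Transcript_272, with a CV of 7.82%, stood at 60.2, 67 and 82.5 CPM at pH 7.6 and at 63.9, 69.6 and 77 CPM at pH 7.9. Transcript_31303, with a CV of 8.16%, stood at 79.9, 98.7 and 111 CPM at pH 7.6 and at 88.6, 92.4 and 101 CPM at pH 7.9. Transcript_34621, with a CV of 8.42%, stood at 19, 23.3 and 26.6 CPM at pH 7.6 and at 21, 23.8 and 25.7 CPM at pH 7.9. In these 3 the pH 7.9 range lay inside the pH 7.6 range, so the wider spread was at pH 7.6.

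**Figure D2:**
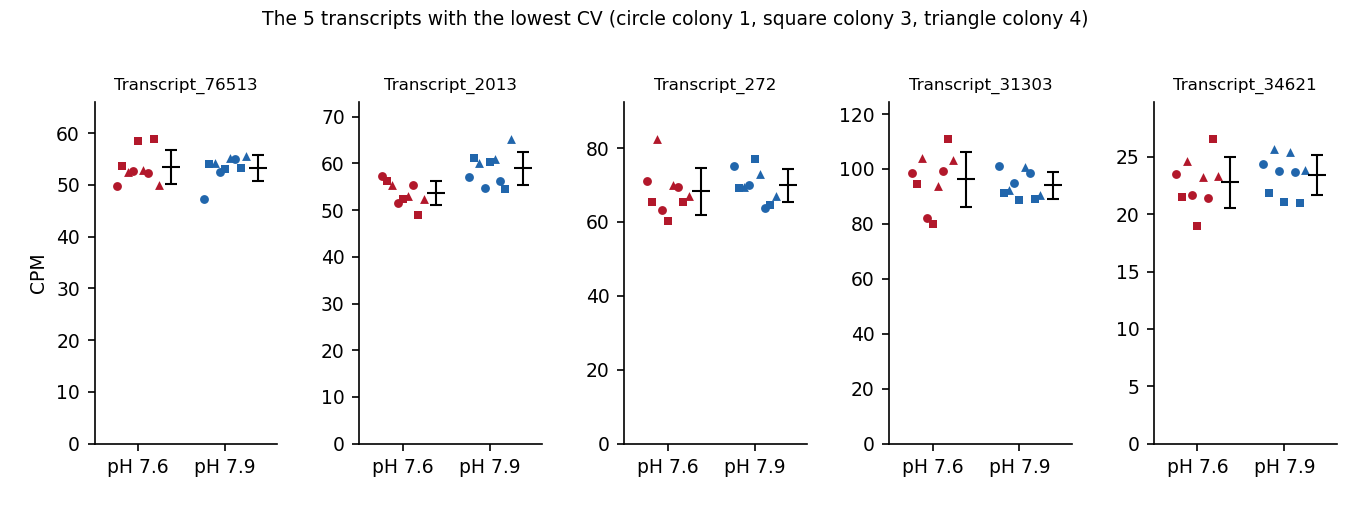
CPM of the 5 transcripts with the lowest CV in each of the 18 libraries, with pH 7.6 on the left and pH 7.9 on the right of each panel and axes from 0. Black marks give the mean and SD (n = 9), and the pH ranges overlap in all 5 panels.

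The member with the highest mean was Transcript_76057, at 815, 986 and 1191 CPM at pH 7.6 and 799, 1017 and 1264 CPM at pH 7.9. It was followed by Transcript_72037, at 511, 613 and 732 CPM at pH 7.6 and 458, 652 and 724 CPM at pH 7.9. The lowest means were those of Transcript_57880, at 16.5, 20.7 and 22.9 CPM at pH 7.6 and 16.6, 19.4 and 23.4 CPM at pH 7.9, and of Transcript_4285, at 15.8, 19.5 and 24.1 CPM at pH 7.6 and 16.4, 21.5 and 23.4 CPM at pH 7.9. The pH ranges overlapped in all 4, which had CVs of 13.1, 11.6, 10.6 and 13.8% in the order given.

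At the edge of the list the CVs were close to each other. The last members were Transcript_11419, Transcript_248 and Transcript_1005, at 13.85, 13.87 and 13.89%. The next transcripts, Transcript_31838, Transcript_14906 and Transcript_4825, had 13.9, 13.91 and 13.92%. The list ends where the CVs are dense, and its last members differ from those outside it by less than 0.1 percentage points.

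A low CV still allowed visible swings in single libraries. Transcript_76915 had the widest ratio of highest to lowest library, 1.94 times, with 18.5, 29 and 36 CPM at pH 7.6 and 24.8, 27.9 and 33.1 CPM at pH 7.9. Its lowest and highest values were both at pH 7.6 and week 2, in colonies 3 and 4. Transcript_74148 came next, at 1.9 times, with 43.3, 45.8 and 63.4 CPM at pH 7.6 and 33.4, 45.5 and 51.8 CPM at pH 7.9.

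The deviations of the members were not spread evenly over libraries. In the week 2, pH 7.6 library of colony 4, 44 members were above 120% of their own mean, 8 were below 80%, and 39 had their highest value there. That library held 10.9% of all squared deviations of the members. The week 2, pH 7.6 library of colony 3 held 9.38%, with 18 members above 120%, 22 below 80%, 22 at their highest and 26 at their lowest. The eligible transcripts had their highest value in the first of these libraries in 22.3% of cases and their lowest in the second in 16.9%, and a library quieter in the members, that of colony 3 at pH 7.6 and week 8.5, held the lowest value in 19.7% of them. For the members the last library held 7.79% of squared deviations, with 17 at their highest and 15 at their lowest. The quietest library for the members was that of colony 4 at pH 7.6 and week 8.5, with 3.21% of squared deviations and 144 of the 200 within 10% of their mean.

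**Figure D3:**
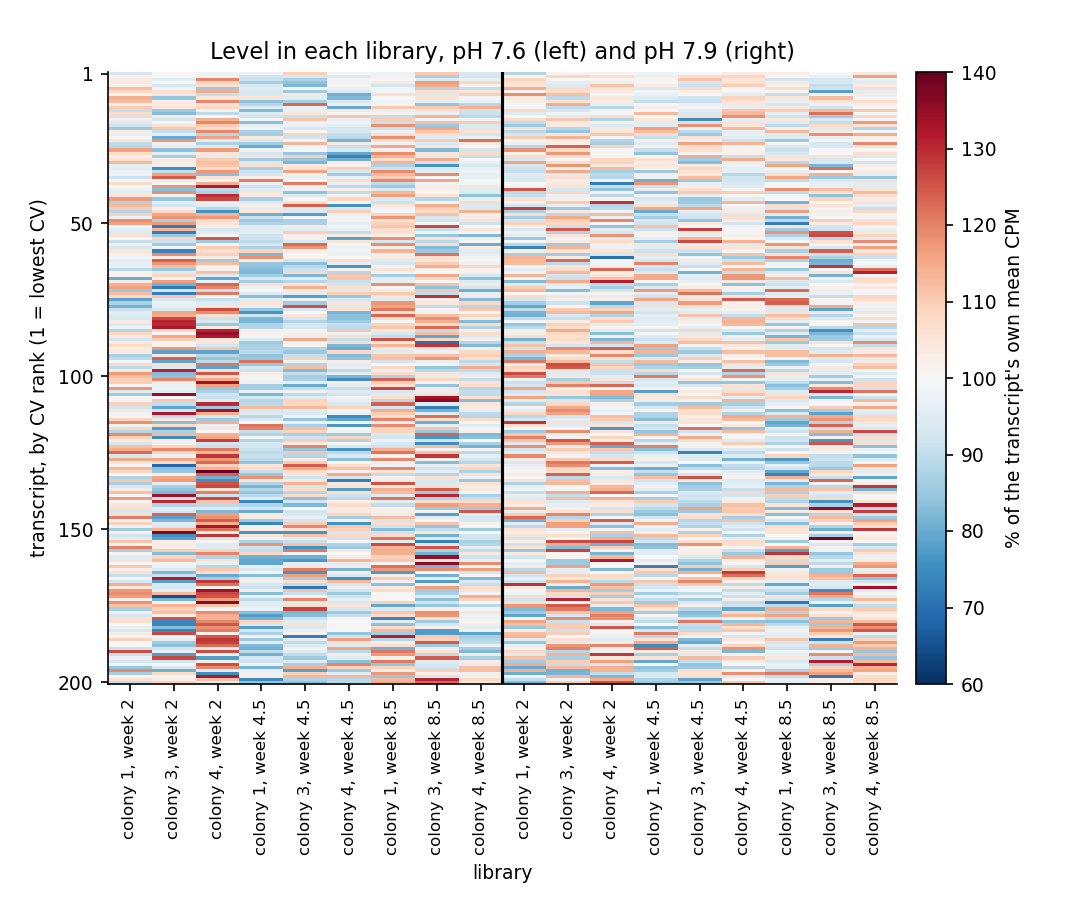
Level of each of the 200 transcripts (rows, by CV rank) in each of 18 libraries (columns, pH 7.6 left of the line and pH 7.9 right), as a percentage of the transcript's own mean CPM. The most strongly coloured columns are the week 2 libraries of colonies 3 and 4 at pH 7.6, which held 9.38 and 10.9% of all squared deviations.

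The variation of the members was divided among the groups of the series, as a description with no level set for groups that do not differ. Differences between the 3 library sets made up 21.5% of the members' squared deviations, as set against 39.8% over the eligible transcripts. The sets were formed from transcript levels in these same libraries, so their share is raised by how they were formed. Differences between colonies made up 14.7% in the members and 22.4% in the eligible transcripts. Differences between weeks made up 19.6% in the members and 16.6% in the eligible transcripts, and differences between pH levels 6.76% and 8.25%. Within sets A, B and C of the libraries, with 6, 5 and 7 libraries, the median CV of the members was 10.7, 11.8 and 10.9%, where the eligible transcripts had 21.7, 28.4 and 22%.

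Between the pH levels, 95 members had the higher mean at pH 7.6 and 105 the lower, and 4440 and 4015 of the eligible transcripts. With TMM scaling the members' counts were 77 and 123, and without the 5 libraries outside the set of their colony 81 and 119. With library totals the log2 ratio of mean CPM, pH 7.6 over pH 7.9, ran from -0.22 to 0.21 with a median of -0.01. It lay within 0.1 of zero in 145 of the 200, or 72.5%, where 31.4% of eligible transcripts did. Since a low CV bounds such ratios, this follows from the choice of members. The largest positive ratios were those of Transcript_14469, at 55.2, 73.5 and 78.7 CPM at pH 7.6 and 52.9, 59.2 and 71.6 CPM at pH 7.9, and of Transcript_35063, at 31.1, 33.5 and 43 CPM at pH 7.6 and 26.7, 29.3 and 35.8 CPM at pH 7.9. The most negative were those of Transcript_64764, at 23.7, 28.4 and 31 CPM at pH 7.6 and 27.8, 31.7 and 37.5 CPM at pH 7.9, and of Transcript_81241, at 23.1, 24.8 and 28.4 CPM at pH 7.6 and 23.2, 28.7 and 34.1 CPM at pH 7.9. The pH ranges overlapped in these 4 and in every other member, where 0.0355% of eligible transcripts had no overlap.

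Without the 5 libraries outside the set of their colony, the median log2 ratio of the members was -0.03, with a range from -0.25 to 0.26. The quasi-likelihood test of edgeR, with Benjamini-Hochberg adjustment over 56223 transcripts, called 0 of the 200 for pH over all weeks at an adjusted p below 0.05, where 0.141% of all transcripts tested were called. No member had an unadjusted p below 0.05 in edgeR, where 9.28% of all transcripts did. DESeq2 called 0 members and 1.7% of all transcripts, with 1 member and 11.2% of all transcripts at an unadjusted p below 0.05. At week 8.5 alone edgeR called 0 members, against 0.117% of all transcripts, with 0 members and 8.7% of all transcripts at an unadjusted p below 0.05. DESeq2 called 0 members and 1.47% of all transcripts there, with 0 members and 10.4% of all transcripts at an unadjusted p below 0.05. These libraries chose the members, so nothing is read from these counts.

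With library totals, single pairs differed by more than the pH means. Of a colony and week, 1 library is at pH 7.6 and 1 at pH 7.9. Among these 9 pairs, 8 to 59 members differed by over 1.25 times in CPM between pH 7.6 and pH 7.9. The fewest were in colony 1 at week 2, where both libraries lay in set A, and the most in colony 3 at week 8.5, where they lay in sets B and A. In the same 2 pairs, 31.5 and 77.7% of eligible transcripts differed by over 1.25 times. Colony 4, whose libraries all lay in set C, had 58 such members at week 2, 24 at week 4.5 and 16 at week 8.5. In these 3 pairs 65.1, 45.6 and 42.7% of eligible transcripts differed by as much. Colony 1 at week 4.5, with libraries in sets A and B, had 25 such members and 55.3% of eligible transcripts. With TMM scaling the 9 pairs had 14 to 72 such members. The fewest were again in colony 1 at week 2 and the most in colony 4 at week 2, with 29.5 and 65.1% of eligible transcripts. Colony 3 at week 4.5 had 68 with TMM and 34 with library totals, so the order of the pairs depends on the scaling.

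The members' week ratios spread wider than their pH ratios, within the bounds their CV sets. Week means rest on 6 libraries each and pH means on 9, so week ratios scatter more even where nothing changes. The log2 ratio of mean CPM of week 8.5 over week 2 ran from -0.40 to 0.33 with a median of -0.03, and lay within 0.1 of zero in 111 members, or 55.5%. Of eligible transcripts, 24.1% lay within 0.1 of zero for week 8.5 over week 2 and 31.4% for pH. With library totals 88 members were higher and 112 lower at week 8.5, and without the 5 libraries 101 and 99. Of the eligible transcripts, 3665 were higher and 4790 lower with library totals. The week 2 libraries also differed from all others in their split between lanes, with 31.9 to 81.8% of counts in lane L001 against 49.97 to 50.3%. Every comparison with week 2 carries this difference, and a difference in sequencing cannot be told apart from week in it. The 6 libraries of week 8.5 did not overlap with the 6 of week 2 in 4 members, 1 higher and 3 lower, or 2% of them, where 2.38% of eligible transcripts did not overlap. Transcript_71275 had the most negative ratio, at 120, 133 and 138 CPM at week 8.5 (lowest, median and highest of 6 libraries) and 149, 174 and 191 CPM at week 2. Transcript_64501 followed, at 23.4, 26 and 28.9 CPM at week 8.5 and 30.2, 31.4 and 39 CPM at week 2, and neither overlapped. The remaining member without overlap, Transcript_54257, named after its values were seen, stood at 20.5, 24.7 and 26.9 CPM at week 8.5 and 27.2, 28.8 and 34 CPM at week 2.

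The largest positive ratio was that of Transcript_31431, at 31.3, 35.3 and 39 CPM at week 8.5 and 24.3, 27 and 34.8 CPM at week 2, whose groups overlapped. Transcript_10134 stood at 39.35, 42.5 and 49.7 CPM at week 8.5 and at 31.6, 35.8 and 39 CPM at week 2, and its groups did not overlap. For week 8.5 against week 2, edgeR called 0 of the 200 members and 1.03% of all transcripts, with 6 members and 11.5% of all transcripts at an unadjusted p below 0.05. DESeq2 called 1 member, Transcript_71275 (lower at week 8.5), and 3.51% of all transcripts, with 11 members and 13% of all transcripts at an unadjusted p below 0.05.

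Between week 4.5 and week 2 the members leaned to one side. In 151 of the 200 the mean was lower at week 4.5, with a median log2 ratio of -0.07, and among the eligible transcripts 5580 of 8455 were lower with a median of -0.13. Between week 8.5 and week 4.5, 128 members were higher at week 8.5, with a median log2 ratio of 0.06, against 5300 eligible transcripts with a median of 0.08. With TMM scaling 121 members were lower at week 4.5 than at week 2, with a median log2 ratio of -0.04. With the same scaling 106 were higher at week 8.5 than at week 4.5, with a median of 0.01, so both leans were smaller than with library totals.

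Between colonies, the log2 ratio of mean CPM of colony 4 over colony 1 ran from -0.27 to 0.30 with a median of 0.04. It lay within 0.1 of zero in 107 members, or 53.5%, where 18.5% of eligible transcripts did. The largest positive ratios were those of Transcript_30512, at 34.4, 43.9 and 46.1 CPM in colony 4 and 31, 32.6 and 42.2 CPM in colony 1, and of Transcript_78639, at 41, 50 and 54.5 CPM in colony 4 and 35.4, 40.8 and 42.9 CPM in colony 1. The most negative were those of Transcript_37160, at 22.9, 25.1 and 29.1 CPM in colony 4 and 26.3, 30.8 and 34.6 CPM in colony 1, and of Transcript_41936, at 28.2, 38 and 41.4 CPM in colony 4 and 38.7, 43.7 and 48 CPM in colony 1. In all 4 the 6 libraries of colony 4 overlapped with the 6 of colony 1. The mean was higher in colony 4 in 127 members and lower in 73, and in 5098 and 3357 of the 8455 eligible transcripts. With TMM scaling it was higher in 113 members and lower in 87. The same counts were found without the 5 libraries outside the set of their colony. Without those libraries the log2 ratio of the members ran from -0.28 to 0.33 with a median of 0.03.

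The groups did not overlap in 1 of the 200 members, where 8.4% of eligible transcripts did not overlap between colonies 4 and 1. This was Transcript_34322, named after its values were seen, at 48.9, 53.7 and 59.5 CPM in colony 4 and 41.4, 46.2 and 47.7 CPM in colony 1. For colony 4 against colony 1 edgeR called 0 members and 11.9% of all transcripts, with 1 member and 28.2% of all transcripts at an unadjusted p below 0.05. DESeq2 called 0 members and 19.5% of all transcripts there, with 8 members and 31.4% at an unadjusted p below 0.05. For colony 4 against colony 3 edgeR called 0 members and 4.09% of all transcripts, with 11 members and 20% of all transcripts at an unadjusted p below 0.05. With library totals in place of TMM scaling, edgeR had 2 members and 19.9% of all transcripts below that level. DESeq2 called 2 members there, Transcript_37160 and Transcript_58607 (both lower in colony 4, the second named after its values were seen), and 10.8% of all transcripts, with 14 members and 22.5% at an unadjusted p below 0.05. The median over all transcripts in that comparison was -0.03 on the log2 scale with TMM scaling and 0.10 with library totals alone, while the members' median was -0.12 and 0.02. Without the 5 libraries outside the set of their colony, edgeR called 0 members in both comparisons. Of the 60786 transcripts then tested it called 17.8% for colony 4 against colony 1 and 14% for colony 4 against colony 3.

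Which transcripts were steadiest depended on the scaling. TMM, which sets libraries to a common level from the bulk of their transcripts, gave factors of 0.825 to 1.17 with a CV of 7.87%, against a median CV of 12.5% for the members. Over TMM-scaled CPM the members' CVs ran from 7.84 to 20.7% with a median of 13.8%, higher than with library totals in 146 members and lower in 54. Because a low CV with library totals chose the members, a rise in most of them follows from the choice. The median CV of eligible transcripts was 30% with TMM and 30.3% with library totals. The same rule on TMM-scaled CPM chose 105 of the 200 again, and on CPM from the size factors of DESeq2 it chose 101. The 200 transcripts chosen under TMM had CVs of 7.84 to 13.9% with a median of 12.4%, so both scalings gave lists of the same tightness, and 189 transcripts were shared by the lists of TMM and of DESeq2 size factors.

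The scalings differed most in 2 libraries of week 2. The median member stood at 98.4% of its own mean CPM in the week 2, pH 7.6 library of colony 3, which had the lowest TMM factor, and at 119% after TMM scaling. In the week 2, pH 7.6 library of colony 4, with the highest factor, the median member stood at 107% and after TMM scaling at 91.4%. Over all 18 libraries this median ran from 92.3 to 107% with library totals and from 90.9 to 119% with TMM. The choice of members on library totals favours the narrower range there.

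Transcript_66188 followed the TMM factor most closely upward, at 175 CPM in the library with the lowest factor and 262 CPM in that with the highest, and its CV of 11.1% was 7.9% after TMM scaling. Transcript_65792 followed it most closely downward, at 73.4 and 48.1 CPM in the same libraries, and its CV of 13.5% was 20.7% after TMM scaling. Of the 5 transcripts with the lowest CV, Transcript_76513 had 9.85% and Transcript_2013 11% after TMM scaling, while Transcript_272, Transcript_31303 and Transcript_34621 had 9.27, 8.51 and 8.46%. All 5 were among the 200 chosen under TMM. With TMM scaling, pH, week, colony and library set made up 5.57, 13.6, 20.7 and 16.3% of the members' squared deviations. The share of colony was then above that of week. Over the eligible transcripts the 4 shares were 8.03, 16.2, 22 and 39.9%.

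**Figure D4:**
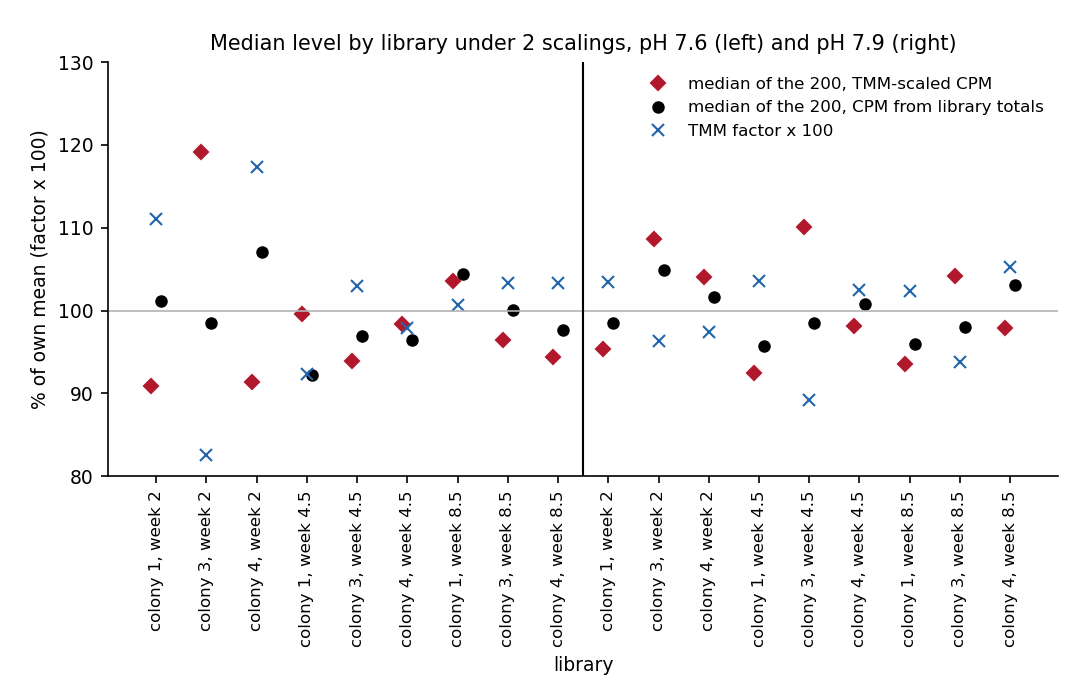
For each of 18 libraries (pH 7.6 left of the line, pH 7.9 right), the median level of the 200 transcripts as a percentage of their own mean, under TMM scaling (diamonds) and library totals (circles), with the TMM factor times 100 (crosses). The circles stay between 92.3 and 107%, and the diamonds reach 119% where the factor is lowest. The transcripts were chosen on library totals, which favours the narrower range of the circles.

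The rule summed the 2 lanes of each library, so the split of a count between lanes was not used by it. Lane L001 held 31.9 to 81.8% of the counts of the week 2 libraries and 49.97 to 50.3% of those of the others. For the members, the squared deviation of the lane split from that of the whole library, divided by its binomial variance, averaged 1.01 over members and libraries, where 1 is counting error alone. By member it ran from 0.412 to 2.08 over the 18 libraries. The log2 ratio of lane L002 over lane L001 ran from -0.08 to 0.07, with a median of 0.00.

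Tested over the 36 lane columns with the library as a term, edgeR called 0 of the 200 members between lanes and 0.00821% of the 48714 transcripts tested, with 7 members and 4.73% of all transcripts at an unadjusted p below 0.05. The lowest adjusted p of a member was 0.947. DESeq2 called 0 members and 0% of all transcripts, with 5 members and 2.14% of all transcripts at an unadjusted p below 0.05. The lanes repeat the sequencing of 1 library and carry no difference between polyps. The rule chose 162 of the 200 again from lane L001 alone and 161 from lane L002 alone, and the lists from the separate lanes shared 127.

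To see the same measure in libraries that played no part in the choice, the rule was repeated without a colony or a pH level, and the CV of the 200 transcripts then chosen was taken in the libraries left out. Chosen in colonies 3 and 4, they had a median CV of 13.1% in colony 1, against 22.4% over all eligible transcripts there. Chosen in colonies 1 and 4, they had 20.5% in colony 3, against 34.7%. Chosen in colonies 1 and 3, they had 13.5% in colony 4, against 22.5%. In colonies 1, 3 and 4, 135, 139 and 141 of the 200 were in the lowest quartile of eligible transcripts by CV, and 14, 16 and 12 were above the median.

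Chosen at pH 7.9, the 200 transcripts had a median CV of 17.4% in the 9 libraries at pH 7.6, against 31.1% over all eligible transcripts, and 164 were in the lowest quartile. Chosen at pH 7.6, they had 13.8% at pH 7.9, against 26.6%, and 168 were in the lowest quartile. The held-out libraries share weeks with the choosing ones, and with a pH level held out they share all 3 colonies as well. By likeness colonies 1 and 3 share sets A and B, and colony 3 has a library in set C with those of colony 4. The held-out and the choosing libraries are therefore not fully separate samples. Of the 200 members, 137, 85 and 135 were chosen again without colony 1, 3 and 4, and 144 without the 5 libraries outside the set of their colony. Without colony 3 the list therefore kept the fewest of its members.

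**Figure D5:**
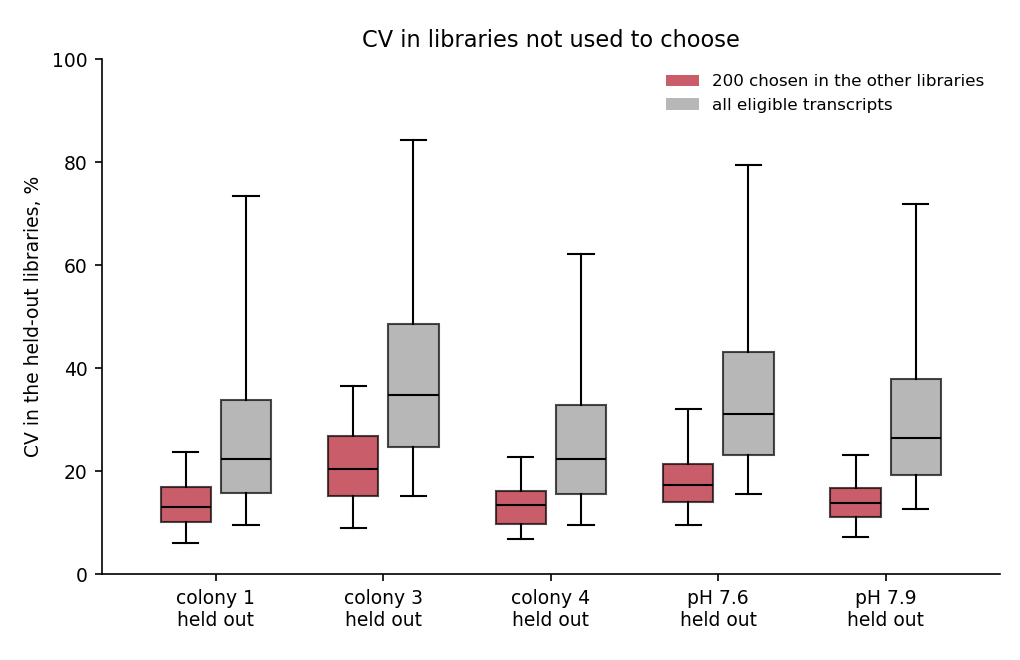
CV, in percent, in libraries not used to choose, for the 200 transcripts chosen in the other libraries (left box of each pair) and for all eligible transcripts (right box), with colony 1, 3 or 4 or a pH level held out. Boxes give the median and quartiles and whiskers the 5th and 95th percentiles over transcripts, and the chosen medians lie at 13.1, 20.5, 13.5, 17.4 and 13.8%.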

How the data were processed

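The deposited file holds raw read counts for 75743 transcripts in 36 columns, 2 lanes for each of 18 libraries. Per the labels' protocols, RNA came from a Qiagen extraction kit, and single-end sequencing was done on an Illumina HiSeq. The submitters' processing notes name Trimmomatic 0.36, cutadapt 1.15, FastQC and DESeq2, without role. Which aligner, counter and transcript set were used is not given in the sources used here, so reads of near-identical transcripts may have been split or dropped.

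Lanes were summed, and CPM used library totals unless TMM is named. The members and the lists were chosen with earlier results of these data known. Members named are those with the lowest CV, the highest and lowest means and ratios between libraries, the largest ratios between groups, the closest relation to the TMM factor and the edge of the list. The tests used edgeR 4.0.16 (quasi-likelihood, R 4.3.3) with Benjamini-Hochberg adjustment, on 56223 transcripts passing filterByExpr (all 200 members did), with 1 coefficient per pH and week, and colony as a block. DESeq2 1.42.0 was an alternative. The block rests on the labels, which place each colony at both pH levels. The deviations of the libraries of a colony and week from their group means correlated above 0.1 in 5 of 9 pairs (-0.406 to 0.763, across transcripts). The 3 library sets came from average linkage on 1 minus Spearman's correlation. The members' ratios under TMM and without 5 libraries were chosen as alternatives after seeing the data. The tests were checked on simulated counts. For pH, week and colony, p-values measure the spread between these libraries, and for lanes they measure counting and lane error within libraries. The CVs given for counting error cover that error only.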

Additional observations from a re-analysis of the deposited data

Results flagged for a closer look

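In 82 groups of 6 to 9 libraries formed from the named transcripts and from the median of the 200, 7 values stood apart, with a gap to the nearest other library above Dixon's 95% critical value. Chance flags about 1 in 20 groups that are independent and picked without regard to their values. Here the transcripts were named for extremes of the same values and the groups share libraries. The 7 of 82 can therefore not be set beside that rate. Of the 7, 3 came from the week 2, pH 7.6 library of colony 4. In it Transcript_272 stood at 82.5 CPM, with the other 8 libraries of pH 7.6 at 60.2 to 71.1 CPM. Transcript_35063 stood there at 43 CPM against 31.1 to 35.5 CPM, and Transcript_78639 at 54.5 CPM against 36 to 44.7 CPM.

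Transcript_76513, the transcript with the lowest CV, stood at 47.2 CPM in the week 2, pH 7.9 library of colony 1, with the other 8 libraries of pH 7.9 at 52.5 to 55.6 CPM. Transcript_41936 stood at 47.5 CPM in the week 4.5, pH 7.6 library of colony 1, with the others of pH 7.6 at 39.4 to 42.6 CPM. Transcript_30512 stood at 34.4 CPM in the week 4.5, pH 7.9 library of colony 4, with the other 5 libraries of colony 4 at 42 to 46.1 CPM. After TMM scaling, the median of the 200 stood at 119% of its own mean in the week 2, pH 7.6 library of colony 3, with the other libraries of pH 7.6 at 90.9 to 104%.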

How the results depend on the processing

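Of the 200 transcripts, the rule chose 105 again with TMM and 101 with DESeq2 size factors, 92 with the median absolute deviation over the median in place of the CV, 75 with a mean CPM of 50 or more, 118 in the pH 7.6 libraries alone and 88 in the pH 7.9 libraries alone. With colonies or single libraries left out it chose 85 to 188, the fewest without colony 3. It chose 144 without the 5 libraries outside the set of their colony and 141 with a mean CPM of 10 or more. The median CV of the members was 13.8% with TMM, 13.9% with DESeq2 size factors and 11.1% at pH 7.9 alone, and 11.8 to 12.7% with colonies or libraries left out. Held-out CVs moved by less than their spread between colonies under TMM.

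For pH, for colony 4 against colony 1 and between lanes, the count of members called was 0 in every alternative fit. Of all transcripts these fits called 0 to 1.7% for pH over all weeks and 0 to 1.47% for pH at week 8.5. They called 8.43 to 24.1% for colony 4 against colony 1 and 0 to 0.0122% between lanes. Where almost no transcript was called, a count of 0 says nothing about the members. With DESeq2 the count was 1 for week 8.5 against week 2 and 2 for colony 4 against colony 3. DESeq2 called 3.51 and 10.8% of all transcripts there. In the other fits of these 2 comparisons the count was 0. Those fits called 0.00177 to 3.87% and 2.32 to 14% of all transcripts. Without the replicate block the count was 0 for pH, for week 8.5 against week 2 and for lanes. Of all transcripts 0.125% were then called for pH over all weeks, 0.0854% for pH at week 8.5, 0.888% between weeks and 0% between lanes. For pH and week these libraries chose the members, so nothing about the block is read from these counts. Over all transcripts the calls did change, with 79 for pH over all weeks with the block and 70 without it. They rose to 779 when the block was sets A, B and C rather than the labelled colonies. Those sets were formed from transcript levels in these same libraries. Leaving out colony 1, 3 or 4 gave 34, 409 and 0 calls for pH over all weeks. The number of transcripts called for pH therefore depended strongly on how colony was treated. With colonies left out, the count of members called was 0 in each comparison, where 0 to 24.1% of all transcripts were called. The depth, 18042191 counts or more in a library, leaves counting error at a CV of up to 4.81%, so differences of a few percent in the weakest members are not detectable in single libraries.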

Other observations

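The 200 transcripts differed in how firmly they belonged to the list. With each of the 18 libraries left out in turn, 123 were chosen every time, with each colony left out in turn 52, and under all 3 scalings 99. In every one of these repeats 38 were chosen, among them all 5 with the lowest CV and 19 of the 20 with the lowest CV. When the 100 transcripts with the highest mean CPM were not left out, the rule chose the same 200 transcripts, so none of those 100 had a CV as low as the members.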
